A study of Mus musculus with 6 samples.

Results

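Primitive endoderm genes were examined in mouse blastocysts on 6 Illumina bead arrays. The set comprised 10 genes chosen by symbol, namely the transcription factor genes Gata6, Gata4, Sox17, Sox7, Foxq1 and Hnf4a, the receptor gene Pdgfra, and the endocytosis genes Dab2, Lrp2 and Cubn. The array annotation gives them 20 of its 45281 probes. A probe was kept where some group had it above background, with detection p below 0.05, on each of its 2 arrays. This held for 15 member probes of 9 genes, tested together with all 17677 kept probes. Gata4 had 1 probe, which was above background on no array.

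All embryos came from superovulated females of the CD-1 outbred strain, given 5 IU of pregnant mare gonadotropin and, 44 h later, 5 IU of human chorionic gonadotropin before mating. Each array held RNA from 1 pool of 100 to 120 blastocysts of day 3.5. The uterus group (2 pools, uterus 1 and 2) came out of the uteri of normal pregnant mice, the ICI group (ICI 1 and 2) from those of mice given 0.5 µg each of a compound that the labels name only as ICI, and the oviduct group (oviduct 1 and 2) from ligated oviducts. A time of 70 h after the second hormone is stated for uterus and ICI embryos. Whether it is that of treatment or of collection is not said. For oviduct embryos collection on day 4 post coitum is stated, with the plug on day 1, and no time in hours. Whether the groups were collected at the same time is thus not stated. Neither the length of the ligation nor whether different mice gave replicate pools is stated. The p-values therefore measure the spread between these pools, which may be technical.

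The primitive endoderm is the epithelium that covers the inner cell mass on the side of the blastocoel and later forms the visceral and parietal endoderm of the yolk sac. Its precursors arise among the cells of the inner cell mass, where FGF4 from epiblast precursors acts through FGF receptors and ERK, Gata6 is induced and Nanog is lost. Pdgfra, Sox17, Gata4 and Sox7 come on in sequence after Gata6, and the mature epithelium takes up protein through the receptors megalin and cubilin (Lrp2 and Cubn) with the adaptor Dab2. Several of these genes also act in other cells: Pdgfra in stroma, Sox17 in endothelium and in epithelium of the reproductive tract, Lrp2 and Dab2 in absorptive epithelia.

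The 6 arrays resembled blastocysts in their markers. Of 12 epiblast markers, 11 or 12 were above background on each array, as were 10 to 12 of 12 trophectoderm markers. Per array, 16525 to 18182 probes were detected, at a median of 43 or 44 beads each. The oviduct pools differed more between themselves than the pools of the other groups: the root mean square SD over all kept probes was 0.44 on the log2 scale for oviduct, against 0.25 for uterus and 0.21 for ICI. All values below are normalized log2 signals, on which 1 unit is a factor of 2, and they compare arrays for a given probe, not probes with each other.

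In the comparison of oviduct with uterus, the signals of Sox17, Foxq1 and the brighter Sox7 probe were lower in both oviduct pools, and those of Gata6 were higher. Pdgfra, Hnf4a and Lrp2 were close to or above the uterus values in oviduct 1 and below them in oviduct 2. None of the 15 probes passed a limma adjusted p under 0.05 in that comparison, where 0.0509% of all kept probes did (9 of 17677). An unadjusted p below 0.05 was found for 6 member probes and 18.5% of all kept probes. Of the 6, 4 were lower and 2 higher in the oviduct group, against 9.09% and 9.39% of all kept probes. The arrays of the groups did not overlap for 8 of the 15 probes, against 47.3% of all kept probes.

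**Figure D1:**
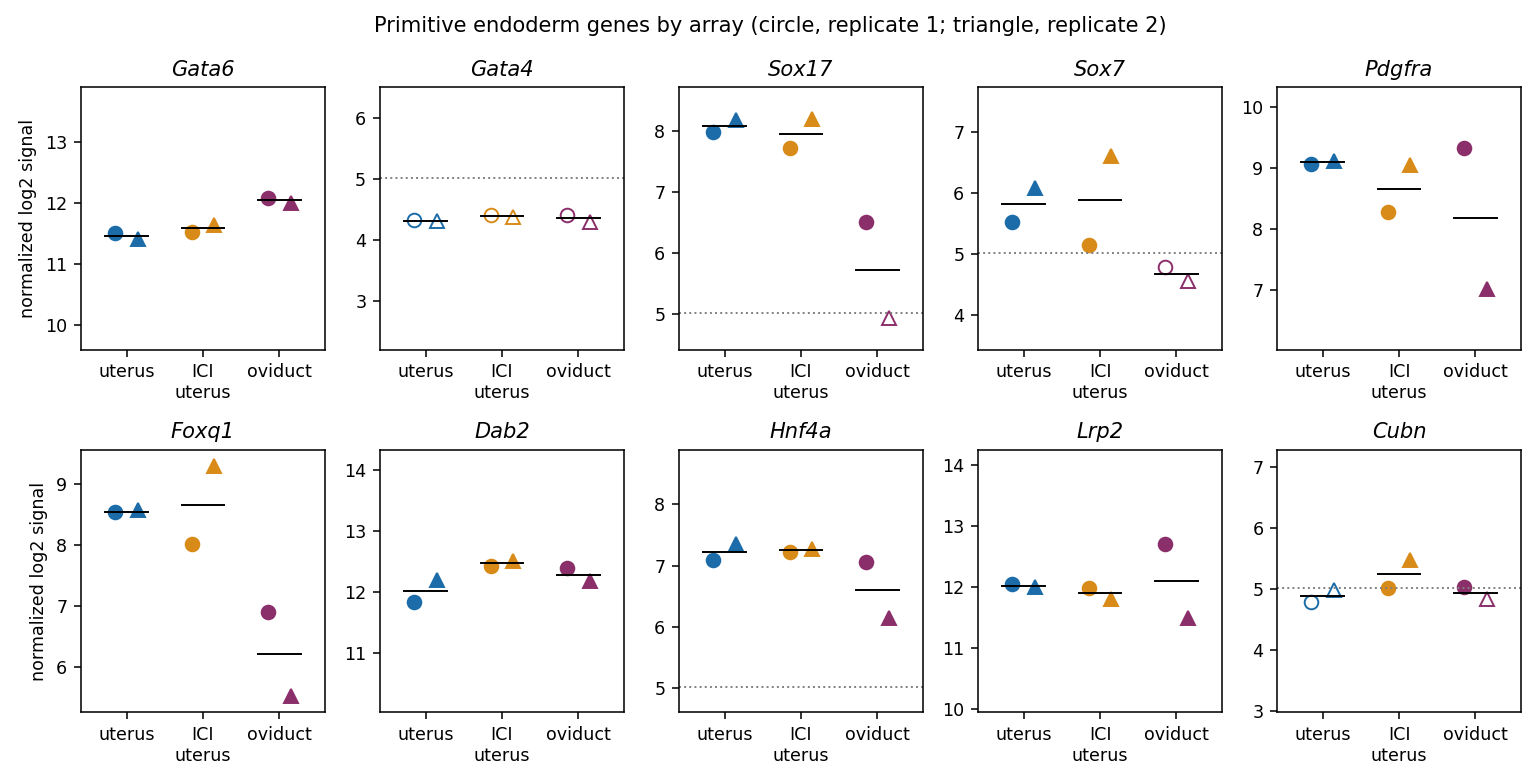
Normalized log2 signal (y axis, the same span in each panel) of each gene's brightest probe by group (x axis). Circles are replicate 1, triangles replicate 2, lines group means, open symbols signals not above background, and the dotted line the mean over arrays of the lowest detected signal. Sox17 and Foxq1 lie lower in both oviduct pools, Gata6 lies higher, and Pdgfra splits the oviduct pools into 9.32 and 7.02.

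Gata6 encodes the zinc finger factor at the head of the primitive endoderm programme. The brighter of its probes, ILMN_2868133, read 11.52 and 11.41 in the uterus pools, 11.53 and 11.65 in the ICI pools, and 12.09 and 12.01 in the oviduct pools. Both oviduct pools lay above all 4 others, and the pools of each group were close together, with SDs of 0.06 to 0.08. The log2 difference, oviduct minus uterus, was 0.59 (SE 0.17, limma adjusted p = 0.163), a 1.5-fold higher mean. Its second probe, ILMN_1255968, also read highest in the oviduct pools, at 7.68 and 7.35 against 7.28 and 6.98 in the uterus pools and 7.08 and 6.91 in the ICI pools. The difference was 0.38 on the log2 scale (SE 0.21, limma adjusted p = 0.376).

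Gata4, which encodes a related GATA factor switched on after Gata6, gave signals between 4.30 and 4.42. Its detection p-values ran from 0.70 to 0.959, so these signals are not well above background on any array.

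Sox17 encodes a SoxF factor that marks committed primitive endoderm and later endoderm. Probe ILMN_2747986 read 7.98 and 8.18 in the uterus pools, 7.71 and 8.19 in the ICI pools, and 6.51 and 4.93 in the oviduct pools. The last array was not above background, by the deposited detection p-value of 0.0534. The groups of flushed embryos overlapped, and both oviduct pools lay below all 4 arrays of those groups. On the scale of the deposited mean bead signal, the same probe stood at 292 and 320 in the uterus pools, 261 and 307 in the ICI pools, and 179 and 92.1 in the oviduct pools. The second probe, ILMN_2784446, was above background on all 6 arrays and showed the same separation, with 6.82 and 5.64 in the oviduct pools against 7.40 to 8.04 elsewhere.

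The log2 difference of Sox17, oviduct minus uterus, was -2.36 for the first probe (SE 0.48, 95% interval -3.50 to -1.21, limma adjusted p = 0.101) and -1.32 for the second (SE 0.40, interval -2.27 to -0.37, limma adjusted p = 0.169). The first value is inexact, since 1 of the 2 oviduct arrays was not above background. These SEs and intervals rest on a spread pooled over the 3 groups. The SD of the first probe was 1.12 in the oviduct pools, against 0.14 in the uterus and 0.34 in the ICI pools. The intervals may thus be too narrow for comparisons with the oviduct group. With both oviduct pools in the fit neither probe passed. With oviduct 2 left out the first probe fell by 1.6 on the log2 scale. With oviduct 1 left out only the array not above background remained for that probe, so no size is given, while the second probe fell by 1.86. In those fits the lone oviduct pool was assumed to vary like the other groups, so only sizes are given for them, here and below. In RNA from whole pools, fewer cells of a type and less RNA per cell cannot be told apart.

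Foxq1, which encodes a forkhead factor expressed in primitive endoderm, had the pattern nearest to Sox17. Its probe read 8.54 and 8.57 in the uterus pools, 8.01 and 9.30 in the ICI pools, and 6.91 and 5.52 in the oviduct pools. The uterus pools were nearly identical (SD 0.02), the ICI pools stood on either side of them (SD 0.91), and both oviduct pools were lower than any other. The log2 difference, oviduct minus uterus, was -2.34 (SE 0.54, 95% interval -3.63 to -1.05, limma adjusted p = 0.117), a 5.05-fold lower mean. Without oviduct 1 it was -2.96, and without oviduct 2 it was -1.66.

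Sox7, a second SoxF gene that follows Sox17, was near background. Probe ILMN_2889482 read 5.53 and 6.08 in the uterus pools and 5.15 and 6.61 in the ICI pools, and at 4.78 and 4.55 it was above background on neither oviduct array. Oviduct embryos had a mean at least 1.82-fold under that of uterus embryos, taking for each dim array the higher of the probe's own signal and the lowest detected signal, and the fit gave a limma adjusted p of 0.253. A second kept probe, ILMN_2653251, overlapped between the groups, with 5.25 and 4.67 in the oviduct pools and 5.18 and 5.42 in the uterus pools. The remaining Sox7 probe was above background on 1 array of the uterus group and 1 of the oviduct group and was not kept.

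Pdgfra encodes the receptor for PDGF-A that primitive endoderm precursors carry on their surface. It read 9.07 and 9.11 in the uterus pools, 8.27 and 9.04 in the ICI pools, and 9.32 and 7.02 in the oviduct pools. Oviduct 1 was thus the highest and oviduct 2 the lowest of all 6, and the standard error over beads was 2.30% and 3.97% of the signal on those arrays. The log2 difference, oviduct minus uterus, was -0.92 (SE 0.68, limma adjusted p = 0.504). Without oviduct 1 it was -2.04, and without oviduct 2 it was 0.23. A second probe was above background on no array.

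Hnf4a encodes a nuclear receptor of visceral endoderm. It read 7.09 and 7.35 in the uterus pools and 7.22 and 7.27 in the ICI pools, and 7.06 and 6.14 in the oviduct pools. Oviduct 1 lay just under the flushed embryos and oviduct 2 clearly below. The log2 difference, oviduct minus uterus, was -0.62 (SE 0.31, limma adjusted p = 0.339). It was -1.06 without oviduct 1 and -0.16 without oviduct 2.

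Dab2, an adaptor that links endocytic receptors to clathrin, had 3 kept probes, which did not give the same order. ILMN_1243329 read 11.85 and 12.21 in the uterus pools, 12.44 and 12.52 in the ICI pools, and 12.40 and 12.18 in the oviduct pools, so that oviduct and uterus overlapped. ILMN_3091641 read 12.18 and 12.13 in the uterus pools, 12.06 and 11.95 in the ICI pools, and 12.52 and 11.70 in the oviduct pools, which again overlapped. With ILMN_2543173 both oviduct pools, at 9.33 and 8.69, lay above the uterus pools at 8.39 and 8.32 and the ICI pools at 8.27 each. Log2 differences, oviduct minus uterus, were 0.26, -0.04 and 0.65 for these probes (limma adjusted p = 0.530, 0.952 and 0.221). Without oviduct 2 the difference of the last probe was 0.98. One further probe was above background on no array.

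Lrp2 encodes megalin, the large receptor of the apical endocytic surface. Its bright probe read 12.05 and 12 in the uterus pools, 11.99 and 11.80 in the ICI pools, and 12.71 and 11.49 in the oviduct pools. As with Pdgfra, oviduct 1 was the highest and oviduct 2 the lowest of the 6. The log2 difference, oviduct minus uterus, was 0.08 (SE 0.38, 95% interval -0.82 to 0.97, limma adjusted p = 0.929). A second kept probe lay between 5.14 and 5.53 on all arrays, with no order by group, and the last was not above background on any array. Cubn, which encodes cubilin, the partner of megalin, was near background throughout, between 4.78 and 5.48. It was above background on both ICI arrays, on 1 oviduct array and on neither uterus array, and its log2 difference, oviduct minus uterus, was 0.06 (SE 0.22, limma adjusted p = 0.911).

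**Figure D2:**
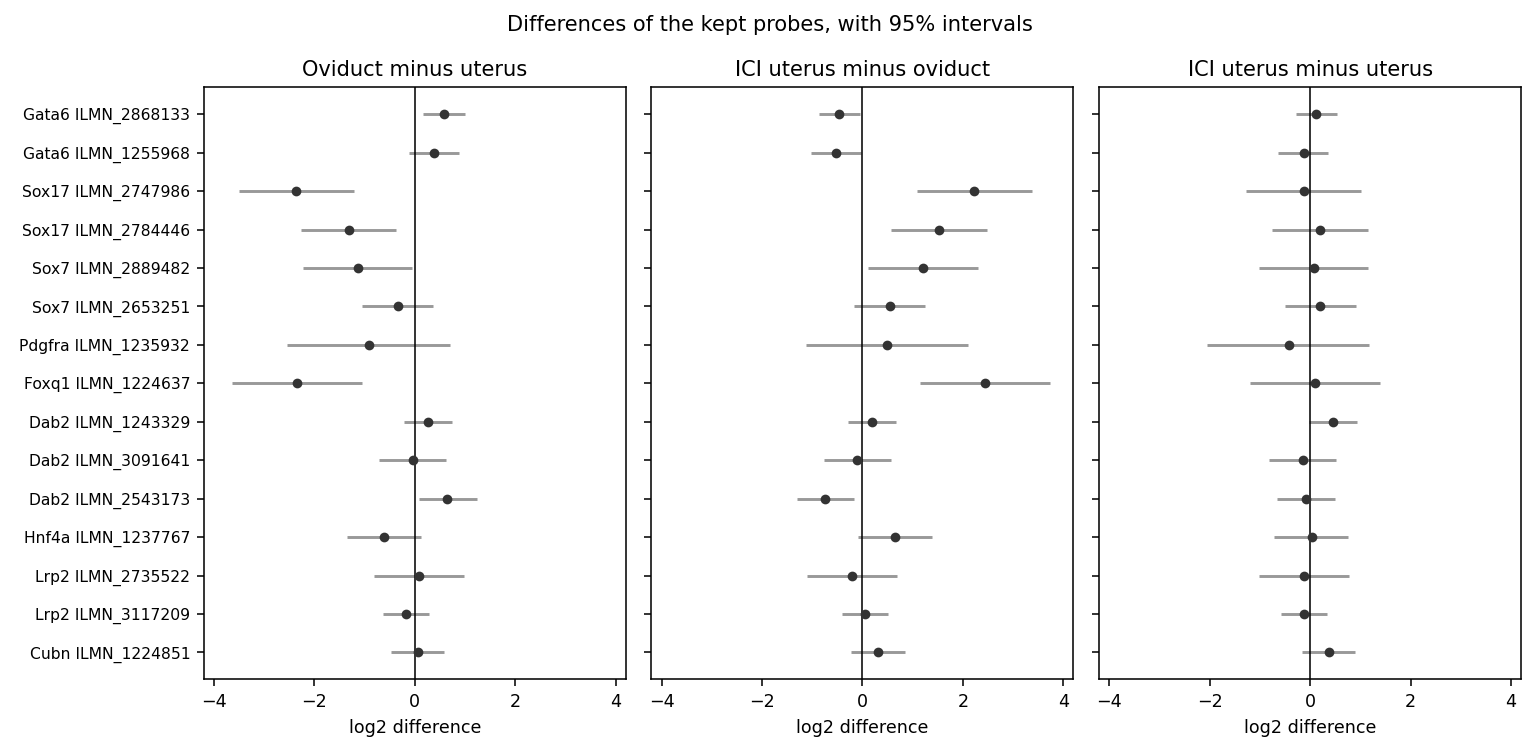
Log2 difference (x axis) with its 95% interval for each of the 15 kept probes (y axis) in the comparisons of oviduct with uterus, ICI with oviduct and ICI with uterus, from 2 arrays a group. The intervals of both Sox17 probes, Foxq1, Sox7 ILMN_2889482, Gata6 ILMN_2868133 and Dab2 ILMN_2543173 lie away from 0 in both comparisons with the oviduct group. The Gata6 and Dab2 probes are higher in the oviduct group and the others lower. All intervals of ICI minus uterus include 0. The intervals are not adjusted for the number of probes. Their spread is pooled over the 3 groups, so those of comparisons with the more variable oviduct group may be too narrow.

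Promoter sequence is shown for 3 members whose signals took different courses in the oviduct pools, Hnf4a and Pdgfra, which split those pools, and Dab2, whose probes disagreed. GATA factors bind sites with the core GATAA, and the windows were searched for GATAA on both strands. RefSeq windows of build GRCm38.p6, 250 bases before to 50 after a gene's start, were at hand for 5 of the 10 genes (7 windows), and 2 of these 7 held a match, where 25.4% of all 32851 windows did. Matches are in capitals, and each sequence runs 5′ to 3′ on the gene's strand. The Hnf4a window lies at chr2:163506607-163506906 (plus strand), that of Dab2 at chr15:6299539-6299838 (plus strand) and that of Pdgfra at chr5:75152001-75152300 (plus strand), and the last holds no match.
Hnf4a: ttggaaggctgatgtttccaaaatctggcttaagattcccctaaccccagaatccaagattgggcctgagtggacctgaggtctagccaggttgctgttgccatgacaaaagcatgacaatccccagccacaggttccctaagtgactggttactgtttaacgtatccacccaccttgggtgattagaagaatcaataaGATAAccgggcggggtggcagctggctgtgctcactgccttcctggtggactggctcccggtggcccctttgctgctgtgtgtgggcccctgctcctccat
Dab2: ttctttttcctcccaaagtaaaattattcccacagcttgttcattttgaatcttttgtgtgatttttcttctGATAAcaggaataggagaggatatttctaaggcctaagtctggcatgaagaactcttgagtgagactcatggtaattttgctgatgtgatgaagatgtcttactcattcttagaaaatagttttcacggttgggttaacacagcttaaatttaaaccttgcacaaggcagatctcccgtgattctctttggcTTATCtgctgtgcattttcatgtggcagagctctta
Pdgfra: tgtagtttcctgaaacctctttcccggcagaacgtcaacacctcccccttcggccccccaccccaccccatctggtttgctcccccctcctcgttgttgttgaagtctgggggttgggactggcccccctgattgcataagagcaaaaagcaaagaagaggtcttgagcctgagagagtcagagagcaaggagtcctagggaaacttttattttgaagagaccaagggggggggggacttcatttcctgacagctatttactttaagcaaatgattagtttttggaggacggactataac
The Hnf4a window held 1 match and the Dab2 window 2, of which 1 read as TTATC on the strand shown. The second windows of Hnf4a and Dab2 and those of Lrp2 and Cubn held none. A match describes these letters only, and binding was not measured.

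The members differed between the oviduct pools in a common direction. All 15 kept probes read higher in oviduct 1 than in oviduct 2, where 54.9% of all kept probes did. Their median gap was 0.63, against a median absolute gap of 0.34 over all kept probes. The gap was 2.30 for Pdgfra, 1.58 and 1.17 for the Sox17 probes, 1.39 for Foxq1, 1.22 for the bright Lrp2 probe and 0.92 for Hnf4a. Gata6 differed least among the bright probes, by 0.08. These probes share arrays and in part genes, so they are not independent of each other.

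The ICI pools differed too: 5 of 15 probes read higher and 10 lower in ICI 1, where 51.3% of all kept probes read higher. In the uterus group 5 of 15 read higher in uterus 1, where 53.5% of all kept probes did. Gaps of ICI 1 minus ICI 2 were -1.45 and -0.65 for the Sox7 probes, -1.29 for Foxq1, -0.77 for Pdgfra, -0.58 and -0.48 for the Sox17 probes and -0.48 for Cubn. These 7 of 15 probes, all lower in ICI 1, exceeded the 90th percentile of the absolute gap over all kept probes of that group, which was 0.46. In the uterus group 1 of 15 exceeded the corresponding 0.54.

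**Figure D3:**
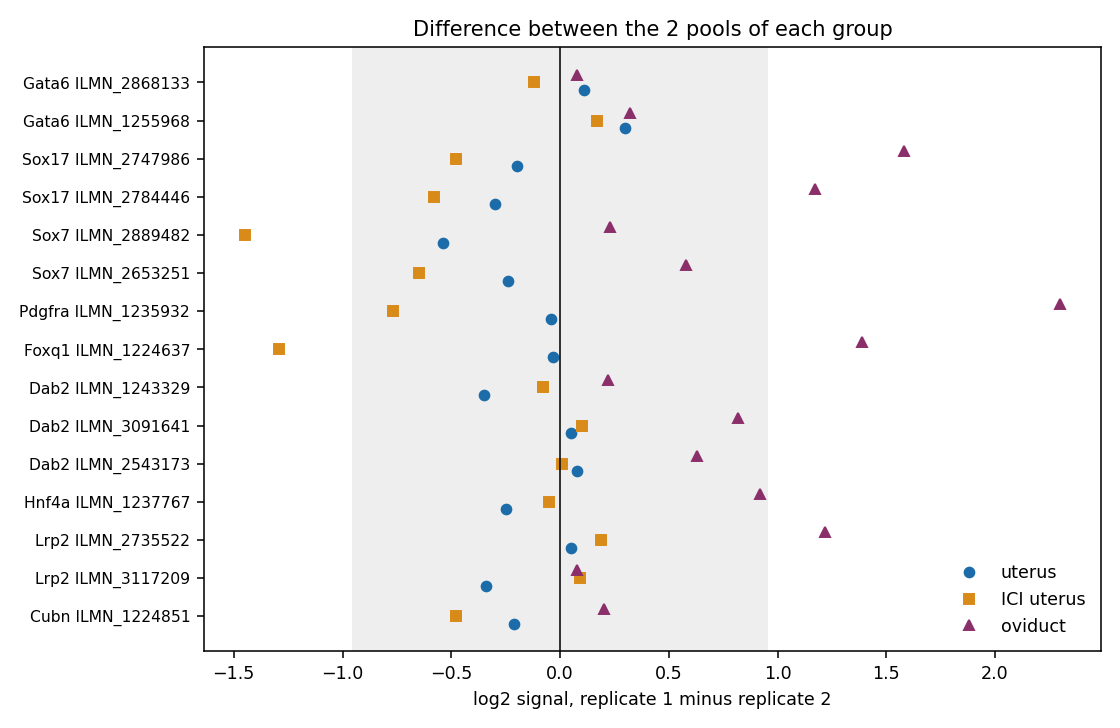
Log2 signal of replicate 1 minus replicate 2 (x axis) for each kept probe (y axis) within the uterus, ICI uterus and oviduct groups. The grey band spans the 90th percentile of the absolute gap over all kept probes of the oviduct group, 0.95, and all 15 oviduct points lie to the right of 0.

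Markers of cell types other than the embryo's were summed on each array. Oviduct epithelium markers other than Krt8, which trophectoderm shares, had a summed normalized signal of 147 and 422 in oviduct 1 and 2, against 81.7 to 109 on the other arrays, with 3 of 7 genes on the array (Pax8, Pax2 and Dnah5) never above background. Most of the sum in oviduct 2 was Ovgp1, at 8.35. The whole list, Krt8 included, summed to 13800 and 10300 in the oviduct pools and to 12600 to 12800 elsewhere. Stroma and muscle markers summed to 191 and 698 in oviduct 1 and 2, and to 152 to 206 elsewhere, with Lum, Myh11, Tagln and Hoxa10 never above background. Most of the stroma and muscle sum in oviduct 2 was Dcn and Vim, at 8.32 and 7.87. Acta2 and Des of that list stood at log2 differences of 0.02 and 0.21, oviduct minus uterus, and Pdgfrb was above background on no oviduct array. Blood and immune markers summed to 198 and 2040 in the oviduct pools, 1250 and 1150 in the uterus pools, and 130 and 938 in the ICI pools, with Alas2, Ptprc and Adgre1 never above background. Most of the blood and immune sum in oviduct 2 and in uterus 1 was Hba-a1, at 10.73 and 10.18. Oviduct 2, in which every kept member probe read lower than in oviduct 1, was thus the pool with the highest sums on these 3 lists without Krt8. Endothelium markers, which matter for Sox17, summed to 1780 and 1650 in the oviduct pools, 1710 and 1580 in the uterus pools and 1350 and 1530 in the ICI pools, with Emcn, Cldn5 and Tie1 never above background. Most of the endothelium sum was Egfl7, at 9.99 to 10.55 on all arrays. Uterine epithelium markers summed to 3010 and 3290 in the oviduct pools, 5820 and 5390 in the uterus pools and 4680 and 5350 in the ICI pools, with Foxa2, Calb1, Sprr2f and Aqp5 never above background. Most of that sum was Wfdc2, at 11.46 to 12.33 on all arrays. Prap1, a secreted protein of uterine epithelium, read 10.19 and 8.76 in the uterus pools, 4.56 and 5.08 in the ICI pools, of which 1 was above background, and 4.52 and 4.66 in the oviduct pools, of which none was. It fell in oviduct embryos by at least 23.1-fold (limma adjusted p = 0.0376), and its log2 difference, ICI minus uterus, was -4.66 (SE 0.45, limma adjusted p = 0.359). The Prap1 probe was kept through the uterus group only. The part of these transcripts in the member values was not tested.

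The embryos of ICI-treated and normal mice were compared to ask whether the genes differ under the treatment. No member differed past the threshold, and none had an unadjusted p under 0.05, where 9.23% of all kept probes had one and 0% passed the adjusted threshold. Gata6 had a log2 difference, ICI minus uterus, of 0.12 (95% interval -0.29 to 0.53), and for Sox17 it was -0.13 (-1.27 to 1.02) and 0.20 (-0.76 to 1.15) by its probes. Foxq1 stood at 0.10 (-1.19 to 1.39), Sox7 at 0.07 (-1.02 to 1.16) and Pdgfra at -0.43 (-2.05 to 1.18). The spread behind these intervals is pooled over the 3 groups, the oviduct pools included. With only the uterus and ICI groups in the fit the SE went from 0.68 to 0.26 for Pdgfra and from 0.48 to 0.20 for the first Sox17 probe, and neither passed (limma adjusted p = 0.409 and 0.756). The intervals of the fit over 3 groups leave room for differences of 2-fold and more in either direction for Sox7, Foxq1, Pdgfra and the first Sox17 probe. The smallest p belonged to the Dab2 probe ILMN_1243329, at 0.45 on the log2 scale (SE 0.20, limma adjusted p = 0.555). The arrays of the groups did not overlap for 7 of the 15 probes, against 54% of all kept probes.

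Comparing ICI with oviduct uses the same oviduct pools as above. Sox17 was at a log2 difference of 2.23 and 1.52, ICI minus oviduct (SE 0.48 and 0.40, limma adjusted p = 0.0941 and 0.124), and Foxq1 at 2.44 (SE 0.54, limma adjusted p = 0.0983). Gata6 stood at -0.46 and -0.52 by its probes (SE 0.17 and 0.21, limma adjusted p = 0.208 and 0.230). The Sox7 mean in oviduct embryos was lower by at least 1.91-fold (limma adjusted p = 0.212). None of the 15 probes passed, where 0.339% of all kept probes did. An unadjusted p below 0.05 was found for 7 probes and 20.7% of all kept probes. Of the 7, 4 were higher and 3 lower in the ICI group, against 10.5% and 10.2% of all kept probes. The arrays did not overlap for 9 of 15 probes, against 53.4% of all kept probes. Lrp2 was at -0.82 with oviduct 2 left out and at 0.41 with oviduct 1 left out, so that its sign rested on the oviduct pool used.

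Other genes of the primitive and visceral endoderm were counted from a fixed list of 28, of which 27 were on the array and 18 had a kept probe. Between oviduct and uterus none passed over all probes, 8 lay above 0 and 10 below, and the median was -0.08, against -0.02 over the 9857 named genes with a kept probe. At an unadjusted p under 0.05 there were 3 higher and 4 lower of 18, against 9.26% and 10.3% of all named genes. Lama1, the laminin chain of the basement membrane that endoderm lays down, read 8.29 and 7.79 in the oviduct pools and 10.01 and 10.33 in the uterus pools, a difference of -2.13 on the log2 scale (SE 0.41, limma adjusted p = 0.0875). It resembled Sox17 in its low oviduct values, and its ICI pools read 9.40 and 10.63. Rhox5, a homeobox gene of extraembryonic endoderm, read 10.86 and 10.23 in the oviduct pools against 9.44 and 9.24 in the uterus pools (log2 difference 1.20, SE 0.25, limma adjusted p = 0.102). Apoa1, an apolipoprotein gene of visceral endoderm, was likewise higher in both oviduct pools, at 8.44 and 8.32 against 7.50 and 7.56 (log2 difference 0.84, SE 0.19, limma adjusted p = 0.113).

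Genes of that list between ICI and uterus had a median of -0.06, against -0.06 over all named genes, with none past the threshold. Plat, which encodes tissue plasminogen activator, a product of parietal endoderm, read 7.45 and 7.27 in the ICI pools and 7.87 and 8.06 in the uterus pools (log2 difference -0.61, SE 0.21, limma adjusted p = 0.535). Thbd, the thrombomodulin gene, was at least 1.13-fold and Srgn, the serglycin gene, at least 1.41-fold higher in the ICI group, as neither was above background in the uterus pools (limma adjusted p = 0.539 each). The Srgn probe was above background in the ICI group only and was kept through it, so its bound is no support for a difference. It read 5.00 in ICI 1, beside a lowest detected signal of 4.98, and 6.13 in ICI 2. In the comparison of ICI with oviduct the genes of smallest p were Lama1, Apoa1 and Rhox5, at 1.98, -0.86 and -0.80 (limma adjusted p = 0.0850, 0.0941 and 0.155).

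Genes of the FGF and ERK pathway, which acts upstream of Gata6, numbered 14 with a kept probe out of a fixed 20. Between oviduct and uterus their median was -0.36, with 4 above 0 and 10 below, and none passed. At an unadjusted p under 0.05 there were 4 lower and 1 higher of 14, against the same 10.3% and 9.26% of all named genes. The receptor gene Fgfr1 read 5.54 and 5.43 in the oviduct pools and 6.35 and 6.34 in the uterus pools (log2 difference -0.86, SE 0.20, limma adjusted p = 0.121). Spry4, a feedback inhibitor of ERK signalling, stood at a difference of -0.70 (SE 0.20, limma adjusted p = 0.154), inexact because 1 oviduct array was not above background, and the ERK kinase gene Map2k1 one of 0.61 (SE 0.18, limma adjusted p = 0.163). Between ICI and uterus the median was 0.00, 7 genes lay on each side of 0 and none passed. Fgf4, the ligand made by epiblast precursors, read 5.81 and 6 in the ICI pools and 4.78 and 5.24 in the uterus pools, of which 1 was above background (log2 difference 0.89, SE 0.24, limma adjusted p = 0.535). Map2k1 stood at 0.56 and Fgfr1 at -0.40 (limma adjusted p = 0.535 and 0.580). In the comparison of ICI with oviduct the median was 0.39, and the genes of smallest p were Etv4, an ETS factor induced by ERK, Fgf4 and Dusp6, a phosphatase that turns ERK off. Etv4 in oviduct embryos was lower by at least 1.48-fold, and Fgf4 and Dusp6 stood at 0.66 and 0.84 (limma adjusted p = 0.162, 0.196 and 0.217).

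PDGF ligand and receptor genes other than Pdgfra had 4 of 5 members with a kept probe. Pdgfa, the ligand of the receptor on primitive endoderm, lay between 11.25 and 11.38 on all 6 arrays, with log2 differences of -0.02 for oviduct and 0.03 for ICI, each minus uterus. Pdgfb, a second ligand gene, read 5.31 and 5.49 in the oviduct pools against 6.17 and 6.32 in the uterus pools (log2 difference -0.84, SE 0.18, limma adjusted p = 0.109) and stood at -0.34 in ICI minus uterus. Pdgfc was at least 1.24-fold lower in the ICI than in the uterus group (limma adjusted p = 0.539). The stromal receptor gene Pdgfrb was above background in the uterus pools only and was kept through them, so its bounds are no support for a difference. Its uterus values, 5.31 and 5.10, lay near the lowest detected signals there, 5.11 and 5.05. The oviduct mean was at least 1.19-fold and the ICI mean at least 1.13-fold under that of uterus embryos (limma adjusted p = 0.139 and 0.597). Of the other GATA and SoxF genes 2 of 7 had a kept probe, and both belong to trophectoderm. Gata2 read 9.72 and 8.28 in the oviduct pools against 10.96 and 10.90 in the uterus pools (log2 difference -1.93, SE 0.43, limma adjusted p = 0.113), and Gata3 stood at -0.40 (SE 0.19, limma adjusted p = 0.311).

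Partners of the endocytic receptors had 13 of 15 genes with a kept probe and a median of -0.21 between oviduct and uterus, with 5 above 0, 8 below and none past the threshold. The clathrin adaptor gene Ap2a2 had the smallest p, at -0.62 on the log2 scale (SE 0.21, limma adjusted p = 0.199). Lrpap1, the chaperone of megalin, read 14.35 and 13.86 in the oviduct pools against 13.70 and 13.58 in the uterus pools (log2 difference 0.46, limma adjusted p = 0.320). Amn, which carries cubilin to the cell surface, read 8.10 and 8.54 against 8.85 and 8.93 (log2 difference -0.57, SE 0.29, limma adjusted p = 0.349). Between ICI and uterus the median was -0.20, and Rab5a of early endosomes had the smallest p, at 0.60 (SE 0.27, limma adjusted p = 0.556). The adaptor genes Ap2a1 and Ap2b1 followed at -0.52 and -0.68 (limma adjusted p = 0.602 and 0.606). Between ICI and oviduct the genes were Myo6, a myosin of endocytic vesicles, Lrpap1 and Ap2a2, at -0.65, -0.61 and 0.43 (limma adjusted p = 0.154, 0.198 and 0.290).

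**Figure D4:**
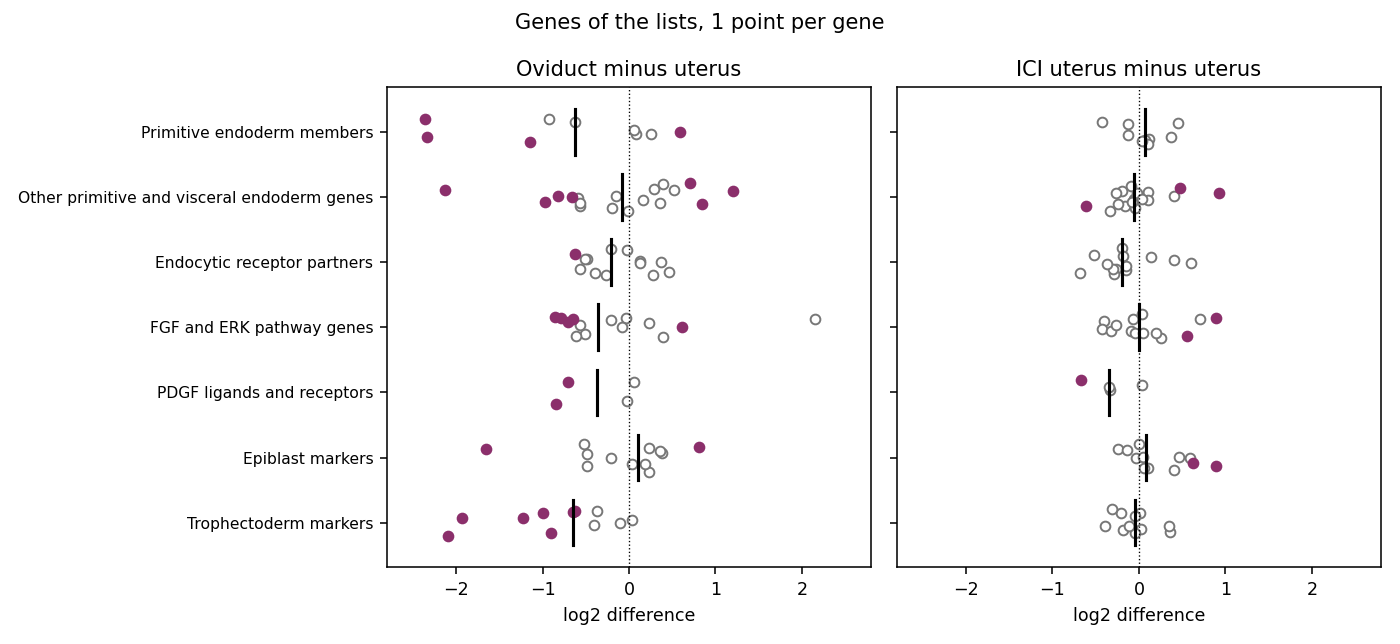
Log2 difference (x axis) of each gene with a kept probe, by list (y axis), for oviduct minus uterus and ICI uterus minus uterus. Filled points have an unadjusted p under 0.05, open points do not, and bars are list medians, which for the members were -0.62 and 0.07.

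Genes of the other lineages of the same pools give the setting for these values. Epiblast markers had a median of 0.10 between oviduct and uterus (12 genes, 7 above 0), while trophectoderm markers had one of -0.65 (11 genes, 10 below 0). At an unadjusted p under 0.05, 7 of the 11 trophectoderm markers were lower, against 10.3% of all named genes. None of them passed. Elf5 read 7.68 and 7.73 in the uterus pools, 7.80 and 8.32 in the ICI pools, and 6.51 and 4.71 in the oviduct pools, of which 1 was above background. Tfap2c was the 1 marker above 0, at 0.04. The members' median was -0.62 over 9 genes, 4 above 0 and 5 below. Between ICI and uterus the medians were 0.09, -0.05 and 0.07 in the same order. Nanog, the epiblast factor that opposes Gata6, was higher in both oviduct pools, at 11.64 and 11.49 against 10.72 and 10.78 in the uterus pools (log2 difference 0.81, SE 0.17, limma adjusted p = 0.109). Klf2, Klf4 and Esrrb were also higher in both oviduct pools, at log2 differences of 0.38, 0.36 and 0.23 (limma adjusted p = 0.326, 0.423 and 0.517). Both oviduct pools lay above both uterus pools for 4 of the 12 epiblast markers, against 2361 of the 9857 named genes. Of the 12 epiblast markers, 5 had a difference below 0. Bmp4, which encodes a secreted signal, read 9.98 and 8.09 against 10.77 and 10.59 (log2 difference -1.65, SE 0.54, limma adjusted p = 0.191). Utf1, Gdf3, Prdm14 and Pou5f1 stood at -0.52, -0.49, -0.49 and -0.21, and the arrays of Prdm14 and Pou5f1 overlapped between the groups.

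The genes whose 6 values lay closest to those of 3 members were found by Pearson correlation, as a description over 3 groups of 2 arrays. Gata6 was followed most closely by Gucd1, Bnip3l and Tubgcp5 (r = 0.9919, 0.9913 and 0.9876), among 14290 probes compared. Ldoc1, Cdx1 and Rin3 lay closest to Sox17 (r = 0.9979, 0.9972 and 0.9966), among 17675. Cdx1, a caudal homeobox gene, read 8.45 and 8.74 in the uterus pools and 7.11 and 5.35 in the oviduct pools. Fgf10, Chdh and Dnmt3b lay closest to Pdgfra (r = 0.9931, 0.9919 and 0.9904), among 14291. Of the probes compared, 107, 340 and 84 reached r = 0.95 with Gata6, Sox17 and Pdgfra.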

How the data were processed

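Per the labels' protocols, RNA of each embryo pool was amplified into biotin-labelled cRNA, and each sample is 1 Illumina array. The deposited table gives, per the file headers, an intensity for each probe (the mean bead signal), with columns for bead number, bead standard error and detection p-value. The authors' deposited log2 values were used as an alternative only. Within 0.0026 they are the log2 signal less 1 constant for each array and 1 for each probe, and the software is not given in the sources used.

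Background correction, quantile normalization (offset 16) and log2 were done by neqc of limma 3.58.1 in R 4.3.3. Kept probes had detection p below 0.05 on each array of some group. Gene symbols came from the platform annotation (34885 probes with 1 symbol, 18 with several, 10378 with none). The fit (lmFit, eBayes) took 6 arrays and a mean for each of 3 groups, leaving 3 residual degrees of freedom beside 3.77 of the prior, with two-sided moderated tests, Benjamini-Hochberg adjustment over all 17677 kept probes and a threshold of 0.05. A gene of a list is represented by its brightest kept probe. SD is given over the 2 arrays of a group. Summed marker signals are normalized signals without the offset. "At least" folds replace differences where a group was not above background. They bound the means of the pools measured and leave out the spread between pools. Named are all members and, of each pathway list, the 3 genes of smallest p per comparison. Nanog, the other epiblast markers, Elf5, Tfap2c, markers of cell types other than the embryo's, Gata3 and Pdgfa were singled out after their values were seen. The fit was run on simulated data in which a probe had the same spread in all groups. That check required only that the size of set differences be recovered. The wider spread of the oviduct pools was not simulated. The number of arrays, not a depth, limits the precision. Figures used matplotlib 3.10.9 in Python 3.11.15.

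The members and lists were chosen with earlier results of these data known. Alternatives covered scaling, background correction, offset, filter, arrays in the fit, replicate block, array weights, probes of a gene and leaving out each array.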

Additional observations from a re-analysis of the deposited data

How the results depend on the processing

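The count of member probes past the threshold was 0 in all 3 comparisons and stayed 0 with median scaling, the authors' values, no background correction, offset 50, no detection filter, a detection p under 0.01, only the 2 groups compared, replicate block and array weights. With 1 array left out a lone pool stands for its group, and counts of such fits are not given. The member count then changed with the array left out in both comparisons with the oviduct group. For all probes changed, oviduct minus uterus, the count of 9 became 38 with median scaling (19 higher and 19 lower, against 1 and 8), 34 with no background correction (10 and 24), 29 with offset 50 (8 and 21), 1 without a detection filter, and 0 with the authors' values, only the 2 groups compared, replicate block or array weights. It ran from 0 to 1847 with 1 array left out. For all probes changed, ICI minus oviduct, the count of 60 became 20 with the authors' values (10 and 10, against 39 and 21), 123 with no background correction (61 and 62), 4 without a detection filter, 0 with only the 2 groups compared, 5 with replicate block and 11 with array weights. Median scaling gave 19 higher and 37 lower, and leaving out 1 array 0 to 2874. Median scaling moved the median of all kept probes, oviduct minus uterus, from 0.00 to 0.22. Deviations of same-numbered arrays correlated at 0.125, 0.23 and 0.0657 between groups. With 2 numbers only, these values cannot tell whether replicate numbers pair the samples.

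Over the settings that left out no array, Sox17, oviduct minus uterus, ran from -2.36 to -1.51 (limma adjusted p 0.0734 to 0.231), Foxq1 from -2.34 to -1.64 (0.107 to 0.267) and Gata6 from 0.48 to 0.78 (0.0880 to 0.352). Signs turned for Cubn, oviduct minus uterus, with the authors' values (-0.13), Dab2, ICI minus oviduct, with median scaling (-0.03) and the mean over probes (-0.22), and, with the mean over probes, Lrp2, oviduct minus uterus (-0.05), Gata6, ICI minus uterus (-0.01) and Sox17, ICI minus uterus (0.03). With 1 array left out, signs also turned within the ranges of Cubn (-0.05 to 0.16), Lrp2 (-0.54 to 0.69) and Pdgfra (-2.04 to 0.23), oviduct minus uterus, of Lrp2 (-0.82 to 0.41) and Pdgfra (-0.67 to 1.61), ICI minus oviduct, and of Foxq1 (-0.55 to 0.75), Hnf4a (-0.10 to 0.15), Sox17 (-0.37 to 0.11) and Sox7 (-0.66 to 0.80), ICI minus uterus. The cause was not tested. Signals of Sox7 and Cubn lie near background, which limits their values.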
